A study of Rattus norvegicus with 24 samples.

Results

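Gene expression in the nasal epithelium of rats was compared after 7 days of inhaled formaldehyde, at 2 ppm, and after the same time in room air. The 6 arrays of this comparison were chosen by their sample titles, 3 exposed and 3 control, from 24 arrays in all. The exposed group held male Fischer rats that breathed formaldehyde, vaporised from carbon-13 and deuterium labelled paraformaldehyde, for 6 hours a day in nose-only tubes. The control group held male Fischer rats of the same kind, placed in nose-only tubes with room air. The rats were about 8 weeks old at the start, and RNA came from tissue of the maxilloturbinate, per the labels. The other 18 arrays were nose at 28 days and white blood cells at 7 and 28 days, with the same exposures and 3 arrays per group. No label states that the arrays of a group came from different animals, and p-values here reflect how these samples vary. Levels below are log2 of the deposited normalised intensity, and differences are exposed minus control on that scale.

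Formaldehyde is a water-soluble, reactive gas that is taken up mostly in the front of the nose. The maxilloturbinate is a scroll of bone there, covered by a ciliated and secretory epithelium that rests on a tissue rich in vessels, glands, fibroblasts and resident immune cells. Olfactory epithelium, with the sensory neurons that carry odorant receptors, lies further back and higher in the nasal cavity.

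All 15 tested markers of epithelium in general and all 12 tested markers of ciliated cells lay higher on every 7 day nose array than on every 7 day blood array, and 16 of 16 tested genes of T and innate lymphocytes lay lower. The nose arrays also held the genes of olfactory neurons, 24 of 25 of which lay above every blood array. The medians of the 6 nose arrays ran from 8.26 to 8.28, and those of the 7 day blood arrays from 7.45 to 7.50, so the tissues were scaled apart. Arrays of nose at 28 days had medians of 7.35 to 7.42. The table has 29214 probe sets, and the number of arrays limits the precision.

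Of 21910 probe sets tested, 1717 were lower in exposed nose, 7.84% of those tested, and 1847 were higher, 8.43% (limma, Benjamini-Hochberg adjusted p under 0.05). Among genes with a name, 1190 fell and 1222 rose, and 304 of the rises but only 1 of the falls were odorant, vomeronasal or trace amine receptor genes. By probe set, 307 of 564 tested for such receptors rose. Of the 304 receptor rises, 138 had a 7 day control mean under 6.61, the level below which probe sets were left out as dim. Those 138 were tested only because other nose arrays were higher, and the size of their rises is uncertain. For a fall the matching limit is a low exposed mean, and 5 of the 1190 falls had one under 6.61. None had so low a control mean, but in a fall the control is the higher group. The 918 other named genes that rose had a median difference of 0.66 and the 1190 that fell a median of −0.51. Falls of 2-fold or more were fewer than rises of that size, 142 probe sets (0.648%) against 678 (3.09%). All 3 exposed arrays lay below all 3 control arrays at 7100 probe sets (32.4%) and above them at 4568 (20.8%). The median difference over all probe sets was −0.05. In tissue RNA, fewer cells of a type and less RNA per cell cannot be told apart.

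Exposed replicate 1 lay furthest from the controls. Over the 1190 named genes that fell, the median deviation from the control mean was −0.71, −0.44 and −0.42 on exposed replicates 1 to 3, and 0.08, −0.07 and −0.01 on control replicates 1 to 3. Over the 918 rises that were not receptors it was 0.88, 0.57 and 0.55 in exposed nose and −0.13, 0.08 and 0.07 in control nose. Without exposed replicate 1 the calls numbered 301 lower and 501 higher, without control replicate 1 they numbered 261 and 585, and without control replicate 3 they numbered 618 and 990. In all 6 fits that left out an array, 219 probe sets were called lower and 476 higher, of which 165 and 148 carried a gene name other than a receptor. Of the 182 called genes picked by the naming rule, 49 kept their call in all 6 fits, and the accounts below lead with these.

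**Figure D1:**
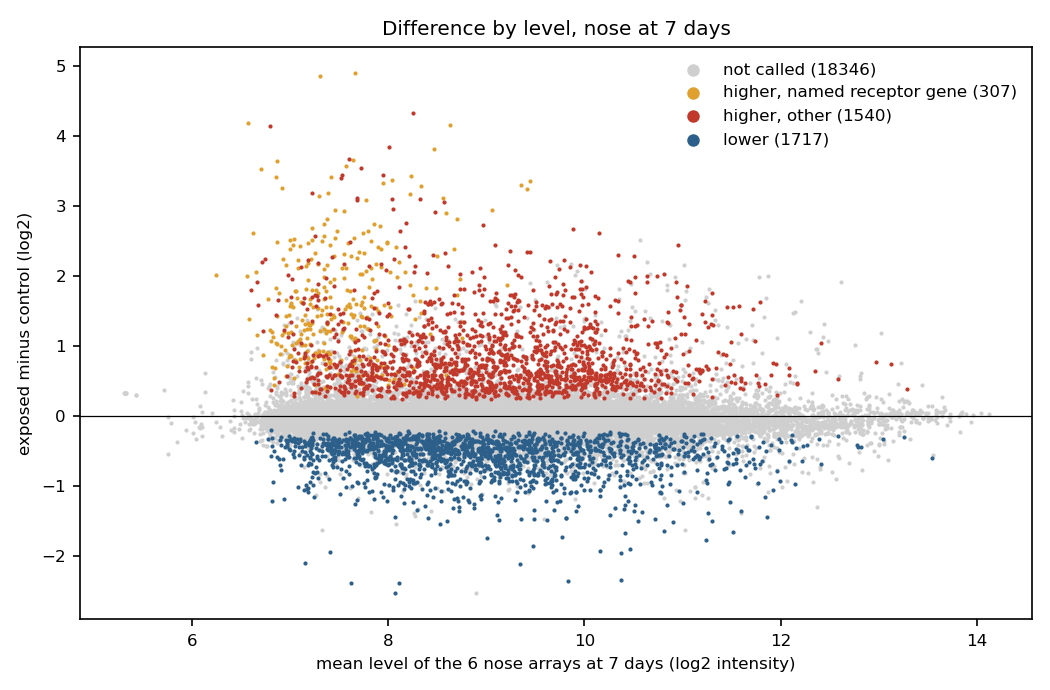
Exposed minus control (log2) against the mean level of the 6 nose arrays at 7 days, 1 point per probe set tested, coloured by call. The 1717 falls spread over the whole range of levels and few reach −2, while the largest rises lie at low mean levels, where the 307 probe sets of receptor genes sit.

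Markers of olfactory neurons moved with the groups, and their whole list is given here because it bears on every comparison below. Rises other than receptors made up 7.52% of all named genes tested. Of 25 tested non-receptor genes of mature olfactory neurons 14 rose, 1 fell (Gucy2d, by 0.22) and 10 did not pass, with a median of 1.68. Their summed intensity was 73376 to 91568 in exposed nose and 14814 to 37849 in control nose, and none had a group mean below 6.61, the level under which probe sets were left out as dim. The list's mean deviation from the control mean was 1.82, 1.46 and 1.44 on exposed replicates 1 to 3 and −0.70, 0.46 and 0.24 on control replicates 1 to 3. Control replicate 1, the lowest control for these genes, was the highest control for the genes that fell. The part of this difference in the results below was not tested.

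The largest fall of a named gene whose call held in every fit was that of Uts2r, the receptor of the vessel-active peptide urotensin II. It stood at 7.47, 8.72 and 8.68 on the 3 exposed arrays, against 10.48, 10.49 and 10.24 on the 3 control arrays. It fell by 2.11 ± 0.33 (SE, n = 3 per group, limma adjusted p = 0.00418). All exposed arrays were below all controls, with exposed replicate 1 the lowest. Jchain, which joins secreted antibody chains, stood at 8.74, 9.76 and 9.67 in exposed nose, against 11.39, 11.37 and 11.27 in control nose. Ly6al, of the Ly6 family, fell by 1.95 ± 0.34 (limma adjusted p = 0.0071), and since members of this family resemble each other its probe set may read more than 1 gene. Folr1, a folate receptor of secretory epithelium, stood at 8.61, 9.77 and 9.51 in exposed nose, against 10.57, 10.67 and 10.51 in control nose. It fell by 1.29 ± 0.26. Gfra3, the receptor part for the nerve growth factor artemin, stood at 8.01, 8.72 and 8.79 in exposed nose, against 9.90, 9.66 and 9.66 in control nose, and fell by 1.23 ± 0.19.

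Several of the other falls among the 25 largest were less stable. Sval2, a secretory protein of the family of prolactin-induced protein, stood at 7.50, 9.50 and 8.96 in exposed nose, against 10.46, 12.12 and 10.47 in control nose. It fell by 2.36 ± 0.63, a call that ended in every fit but the one without exposed replicate 2 (−2.79), with values from −2.79 to −1.78. Odam, a secreted protein first known from tooth epithelium, fell by 1.90 ± 0.42. Dpt, which encodes the matrix protein dermatopontin, fell by 1.86 ± 0.40, and Aox4, an aldehyde oxidase, fell by 1.74 ± 0.39. The calls of these 3 genes held in 5 of the 6 fits and ended without control replicate 1, at −1.92, −1.75 and −1.66. Plau, the protease urokinase, fell by 1.47 ± 0.36, a call that ended without exposed replicate 1 (−1.09), control replicate 1 (−1.31) or control replicate 3 (−1.54). Cxcl13, a chemokine that attracts B cells, was at 8.98, 10.39 and 10.59 in exposed nose, against 11.57, 11.32 and 11.46 in control nose. Its fall of 1.47 ± 0.40 ended without exposed replicate 1 (−0.96) or without any 1 control (−1.53 to −1.41).

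Among the brightest genes, those past percentile 90 of the nose levels, there were 149 falls (8.84%) and 81 rises (4.8%) in 1686 named genes tested, beside falls at 9.75% and rises of other than receptor genes at 7.52% of all 12211 named genes. Akr1c15, a reductase of carbonyl compounds, stood at 9.21, 10.72 and 10.67 in exposed nose, against 11.53, 11.51 and 11.40 in control nose. Its fall of 1.27 ± 0.32 held without each exposed array (−0.78 without replicate 1) and ended without any 1 control. Enpp3, a surface enzyme that breaks down nucleotides, fell by 1.23 ± 0.35 and Car12, a carbonic anhydrase, by 1.16 ± 0.30. Both calls ended without exposed replicate 1, each then at −0.76, or without any 1 control. Mup5, a lipocalin whose probe set may read related genes, fell by 1.45 ± 0.43, a call that held only without exposed replicate 2 (−1.89) and was −0.86 without exposed replicate 1.

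**Figure D2:**
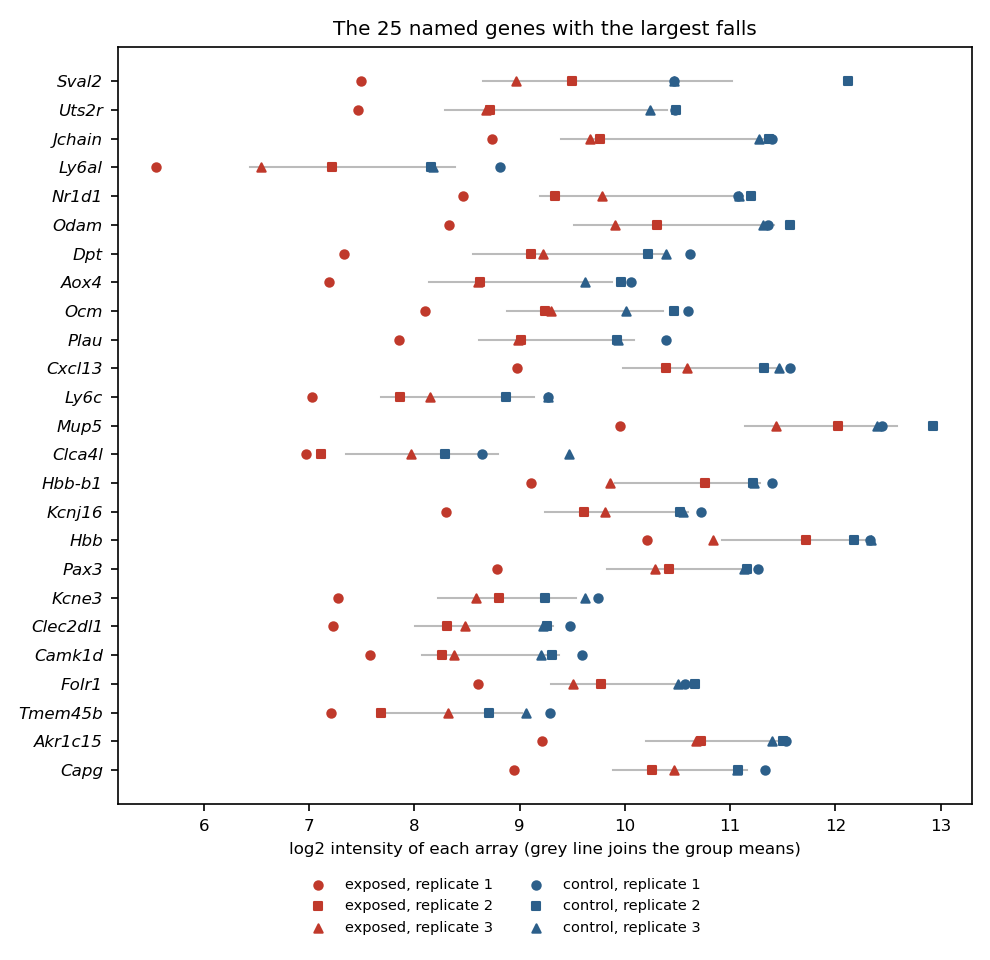
Log2 intensity of the 25 named genes with the largest falls, 1 point per array (exposed red, control blue; circle, square and triangle for replicates 1, 2 and 3). In each row the 3 exposed arrays lie below the 3 control arrays, and exposed replicate 1 is the lowest point in all 25 rows.

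Genes of blood vessels were the most often lower among the lists described. Falls made up 9.75% of all named genes tested. Of 28 listed genes of vascular endothelium 24 were tested, 4 having no probe set named here, and 19 fell, 0 rose and 5 did not pass, with a median of −0.65 beside −0.05 over all probe sets. Pecam1, which joins endothelial cells to each other, stood at 7.98, 8.36 and 8.58 in exposed nose, against 9.50, 9.13 and 9.20 in control nose. Erg, a transcription factor that keeps endothelial identity, stood at 7.91, 7.87 and 8.10 in exposed nose, against 8.81, 8.58 and 8.61 in control nose. Robo4, a guidance receptor of endothelium, was at 7.27, 7.43 and 7.36 in exposed nose, against 8.07, 7.84 and 7.95 in control nose. Each of these, and the cadherin Cdh5, kept its call in all 6 fits, with falls of 0.97 ± 0.15, 0.71 ± 0.11, 0.60 ± 0.08 and 0.61 ± 0.10 in that order. Leaving out exposed replicate 1 reduced the count of 19 to 5, leaving out control replicate 1 to 4 and leaving out control replicate 3 to 12. The summed intensity of the 24 genes was 8484 to 10965 in exposed nose and 14299 to 17278 in control nose.

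Genes of veins, lymph vessels and vessel walls were lower too, beside falls at 9.75% of all named genes tested. In venous endothelium and leukocyte adhesion 7 of 10 tested genes fell and 0 rose. Vcam1, which holds leukocytes to the vessel wall, was at 7.63, 7.77 and 7.90 in exposed nose, against 8.62, 8.38 and 8.54 in control nose, and Csf2rb, the shared receptor chain for GM-CSF, IL-3 and IL-5, fell by 0.87 ± 0.12. Of 8 tested lymphatic genes 4 fell and 0 rose, among them Ccl21, the chemokine that guides dendritic and T cells into lymph vessels, at 8.70, 9.08 and 8.93 in exposed nose, against 10.14, 9.80 and 9.95 in control nose. It fell by 1.06 ± 0.14 (limma adjusted p = 0.00189) and kept its call in all 6 fits, as did Vcam1 and Csf2rb. In smooth muscle and pericytes 11 of 20 tested genes fell and 8 did not pass, while Gucy1b1, a subunit of the receptor for nitric oxide, rose by 0.76. Myocd, a co-activator that switches on smooth muscle genes, stood at 7.50, 7.85 and 7.88 in exposed nose, against 8.74, 8.49 and 8.70 in control nose. Its fall of 0.90 ± 0.11 (limma adjusted p = 0.00148), that of Mcam by 0.70 ± 0.12 and that of Cnn1, the contractile protein calponin, by 0.58 ± 0.09 held in all 6 fits. Not all muscle genes moved, since Acta2, Tagln and Rgs5 had differences of −0.24, −0.11 and −0.02 and did not pass. Without exposed replicate 1, control replicate 1 or control replicate 3 the falls numbered 2 each for the venous list, 1, 1 and 2 for the lymphatic list, and 3, 3 and 5 for smooth muscle, and the rise of Gucy1b1 ended in each of these 3 fits.

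Among genes of fibroblasts and of the matrix the changes were more mixed. In the fibroblast list 9 of 22 tested genes fell, 11 did not pass, and Fap and Ebf1 rose by 0.83 and 1.34. Ebf1 is also a factor of olfactory neurons. Cd34, a surface sialomucin of fibroblasts and vessels, was at 9.15, 9.49 and 9.74 in exposed nose, against 10.48, 10.22 and 10.36 in control nose. Its fall of 0.90 ± 0.14, that of Lsp1 by 0.91 ± 0.13 and that of Mfap5, a microfibril protein, by 0.46 ± 0.09 held in all 6 fits. Only Col3a1 fell of 13 tested collagens, near the share over all named genes. Its fall of 0.62 ± 0.17 was a call that ended without exposed replicate 1 or 2 or without any 1 control. Of 17 basement membrane genes 4 fell and 0 rose. In elastic fibres and small proteoglycans 6 of 22 fell and 0 rose, with Fbn1, the microfibril protein fibrillin, at 8.85, 8.81 and 9.11 in exposed nose, against 9.59, 9.42 and 9.57 in control nose. Eln, the elastin gene, fell by 0.82 ± 0.18, a call that ended without exposed replicate 1 (−0.66) or control replicate 1 (−0.76). Of 26 genes of TGF-beta and BMP signalling 6 fell, 1 (Bmp5) rose and 19 did not pass. Tgfbr3, the co-receptor betaglycan, stood at 10.05, 10.12 and 10.13 in exposed nose, against 10.70, 10.56 and 10.62 in control nose, and its fall of 0.52 ± 0.08 held in all 6 fits. The falls without exposed replicate 1, control replicate 1 or control replicate 3 numbered 4, 3 and 4 for fibroblasts (with 0, 0 and 1 rises), 0, 1 and 1 for basement membrane, 1, 2 and 5 for elastic fibres, and 1, 1 and 3 for TGF-beta and BMP.

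Genes of immune cells fell in 4 lists, read beside falls at 9.75% and non-receptor rises at 7.52% of all named genes tested. None of these lists held a rise, but at that share a lack of rises in a short list says little by itself. Of 20 tested genes of dendritic cells and macrophages 13 fell, of 16 of T and innate lymphocytes 7, of 12 of plasma and B cells 6, and of 5 of mast cells 1. Klrk1, an activating receptor of killer cells, stood at 6.97, 7.39 and 7.42 in exposed nose, against 8.54, 8.10 and 8.39 in control nose. Il7r, the receptor of a survival cytokine of lymphocytes, stood at 6.52, 6.75 and 6.98 in exposed nose, against 7.91, 7.50 and 7.78 in control nose. In white blood cells at 7 days Klrk1 and Il7r had differences of 0.35 and 0.25 and did not pass. Fcgr2b, an inhibitory antibody receptor, was at 7.52, 7.64 and 7.73 in exposed nose, against 8.33, 8.18 and 8.45 in control nose. The calls of these 3 genes, of Jchain and of Mpeg1 held in all 6 fits. The counts without exposed replicate 1, control replicate 1 or control replicate 3 were 2, 2 and 3 for macrophages, 3, 2 and 3 for lymphocytes, and 1, 1 and 2 for plasma and B cells. The single mast cell fall, of Srgn by 0.50, ended in these 3 fits, and 12 of the 18 mast cell genes listed were under the filter.

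Complement genes and genes of red cells followed with named exceptions, beside falls at 9.75% of all named genes tested. In the complement list 7 of 14 tested genes fell, 6 did not pass and Cd55, a surface inhibitor of complement, rose by 1.78. C1r and C1s, the paired proteases that start the classical cascade, stood at 10.48, 10.57 and 10.54 and at 9.38, 9.27 and 9.38 in exposed nose, against 10.97, 10.89 and 11.13 and 9.88, 9.69 and 9.81 in control nose. Their falls of 0.47 ± 0.08 and 0.45 ± 0.08 held in all 6 fits. The complement count fell to 3, and the rise of Cd55 ended, without exposed replicate 1, control replicate 1 or control replicate 3. Of 8 red cell genes 5 fell and 0 rose, with Alas2, the first enzyme of heme synthesis in red cells, at 7.05, 7.89 and 7.18 in exposed nose, against 8.76, 8.40 and 8.43 in control nose. Hbb fell by 1.36 ± 0.29 and Hbb-b1 by 1.37 ± 0.32, but these globin genes are near-identical and may share signal. The red cell count was 2 without exposed replicate 1 or control replicate 1.

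Secretory and ion-transporting cells of the nasal lining showed falls in a few defining genes. The share of falls over all named genes tested was 9.75%. Of 16 tested genes of nasal glands and secretory proteins 6 fell, 0 rose and 10 did not pass. Besides Sval2, Odam and Folr1 these were Dnase1, a secreted nuclease (−0.65), Lyz2, which encodes lysozyme (−0.51), and Aqp5, the water channel of gland cells (−0.37). The gland protein genes Bpifa1, Scgb3a1 and Dmbt1 had differences of 0.05, 0.05 and 0.08 and did not pass. Bpifb3, of the same family as Bpifa1, stood at 13.66, 13.46 and 13.58 in exposed nose, against 12.78, 9.76 and 12.41 in control nose. Its difference of 1.92 ± 0.71 was the highest in the list and did not pass, with all exposed arrays above all controls and control replicate 2 far below the others. Leaving out exposed replicate 1 reduced the gland count to 2, leaving out control replicate 1 to 1 and control replicate 3 to 3, and exposed replicate 1 lay 0.76 below the control mean over the list, against 0.17 and 0.26 on the other exposed arrays.

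Ionocytes are rare cells rich in proton pumps and the chloride channel Cftr. Of their 13 tested genes 4 fell and 0 rose, beside falls at 9.75% of all named genes tested. Foxi1, the transcription factor that defines these cells, stood at 9.99, 10.68 and 10.62 in exposed nose, against 11.64, 11.36 and 11.50 in control nose. It fell by 1.07 ± 0.18 (limma adjusted p = 0.00571), and its relative Foxi2 fell by 0.52 ± 0.10, both in all 6 fits. Ascl3, a further factor of these cells, fell by 0.58 ± 0.16, a call that held only without exposed replicate 2 (−0.65). Cftr itself had a difference of −0.83 and did not pass. The ionocyte count was 2 without exposed replicate 1 or without any 1 control. Of 12 genes of solitary chemosensory cells, which use taste signalling to sense irritants, Plcb2 and Bmx fell and 10 did not pass. The median of that list was −0.125, beside −0.05 over all probe sets. Plcb2, the phospholipase of that signalling, was at 7.18, 7.36 and 7.50 in exposed nose, against 8.01, 7.92 and 8.08 in control nose, and its fall of 0.65 ± 0.09 (limma adjusted p = 0.00189) held in all 6 fits. Pou2f3, the factor that defines these cells, differed by −0.02 and did not pass.

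General epithelial genes leaned lower, though most did not pass the test. Of 15 tested markers 2 fell, 0 rose and 13 did not pass, with all 15 differences below 0 and a median of −0.30. Over all probe sets 7.84% were called lower, and over all named genes 9.75%. All exposed arrays lay below all controls at 13 of the 15 markers, beside 32.4% of all probe sets. Elf3, an epithelial transcription factor, stood at 9.00, 9.91 and 9.88 in exposed nose, against 10.53, 10.47 and 10.46 in control nose. Its fall of 0.89 ± 0.26 and that of Spint2 by 0.45 ± 0.12 ended without exposed replicate 1 (−0.59 and −0.34) or without any 1 control. Epcam, the common epithelial adhesion protein, differed by −0.01, and its sign turned after quantile normalization (0.02) and without exposed replicate 1 (0.01). The summed intensity of the 15 markers was 24676 to 33005 in exposed nose and 38420 to 40669 in control nose, with exposed replicate 1 the lowest. Of 11 basal cell genes Lamb3, Tp63 and Col17a1 fell and 0 rose, and 0 of these calls remained without exposed replicate 1 or control replicate 1. None of 8 tested genes of mucous cells passed in either direction, with Spdef, a factor of goblet cells, at −0.67. In ciliated cells 3 of 12 rose and 0 fell. Drc1 and Ccdc39, both parts of the cilium's axoneme, stood at 10.75, 10.38 and 10.28 and at 9.92, 9.86 and 9.69 in exposed nose, against 9.31, 9.48 and 9.58 and 9.32, 9.12 and 9.32 in control nose. Their rises of 1.01 ± 0.19 and 0.57 ± 0.11 held in all 6 fits, while Foxj1, the master factor of motile cilia, differed by −0.02. The third, Rsph1, rose by 0.42 ± 0.12, a call that held only without exposed replicate 3 (0.48). Without exposed replicate 2 there were also 2 falls in this list.

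**Figure D3:**
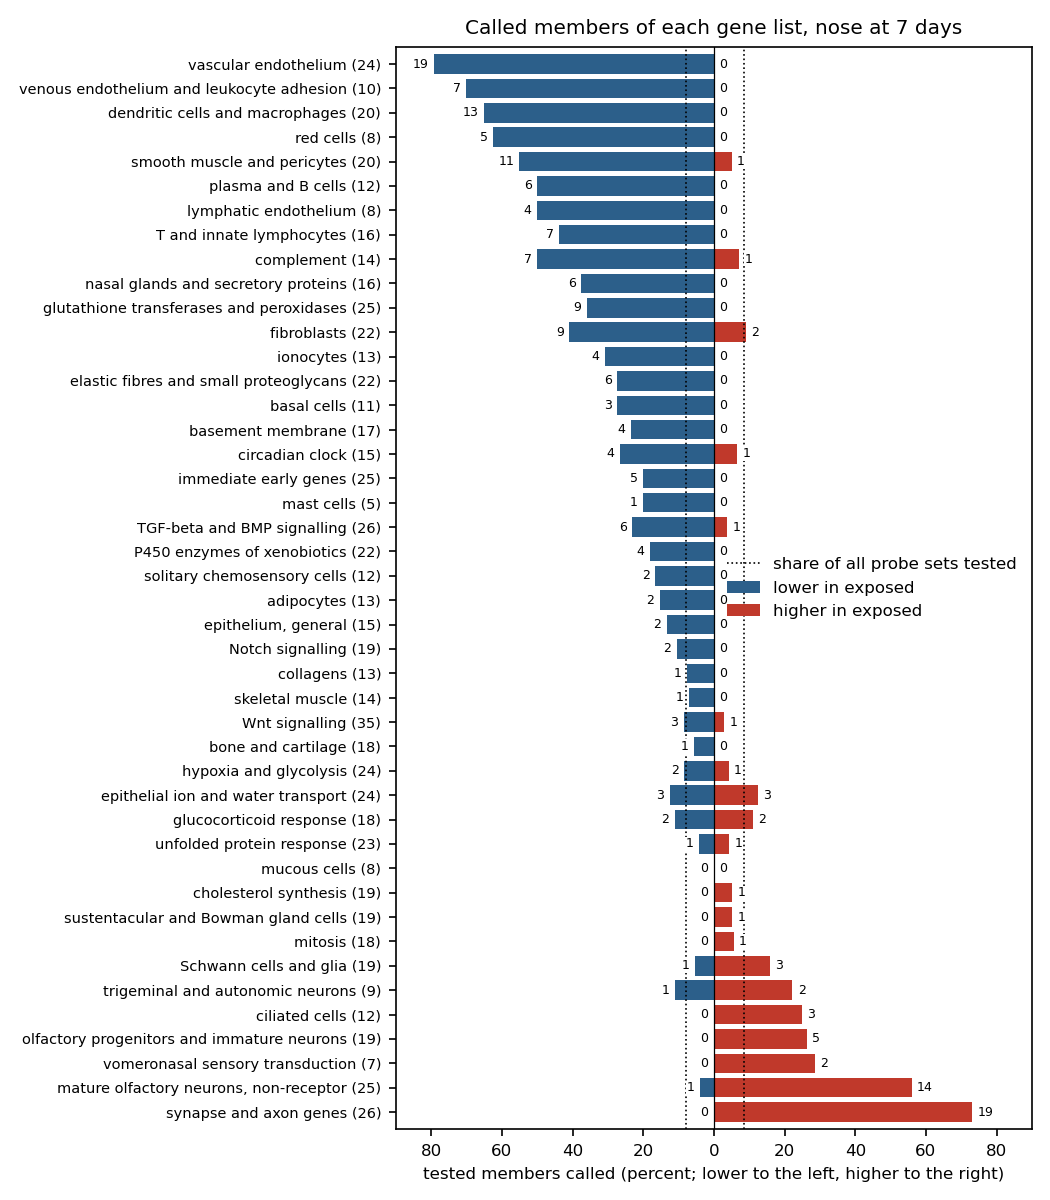
Share of each list's tested members (number in brackets) that were called lower (blue, left) or higher (red, right) in exposed nose, with the counts at the bar ends and dotted lines at 7.84% and 8.43%, the shares over all probe sets. Vascular endothelium has the longest blue bar, 19 of 24, and synapse and axon genes the longest red bar, 19 of 26.

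**Figure D4:**
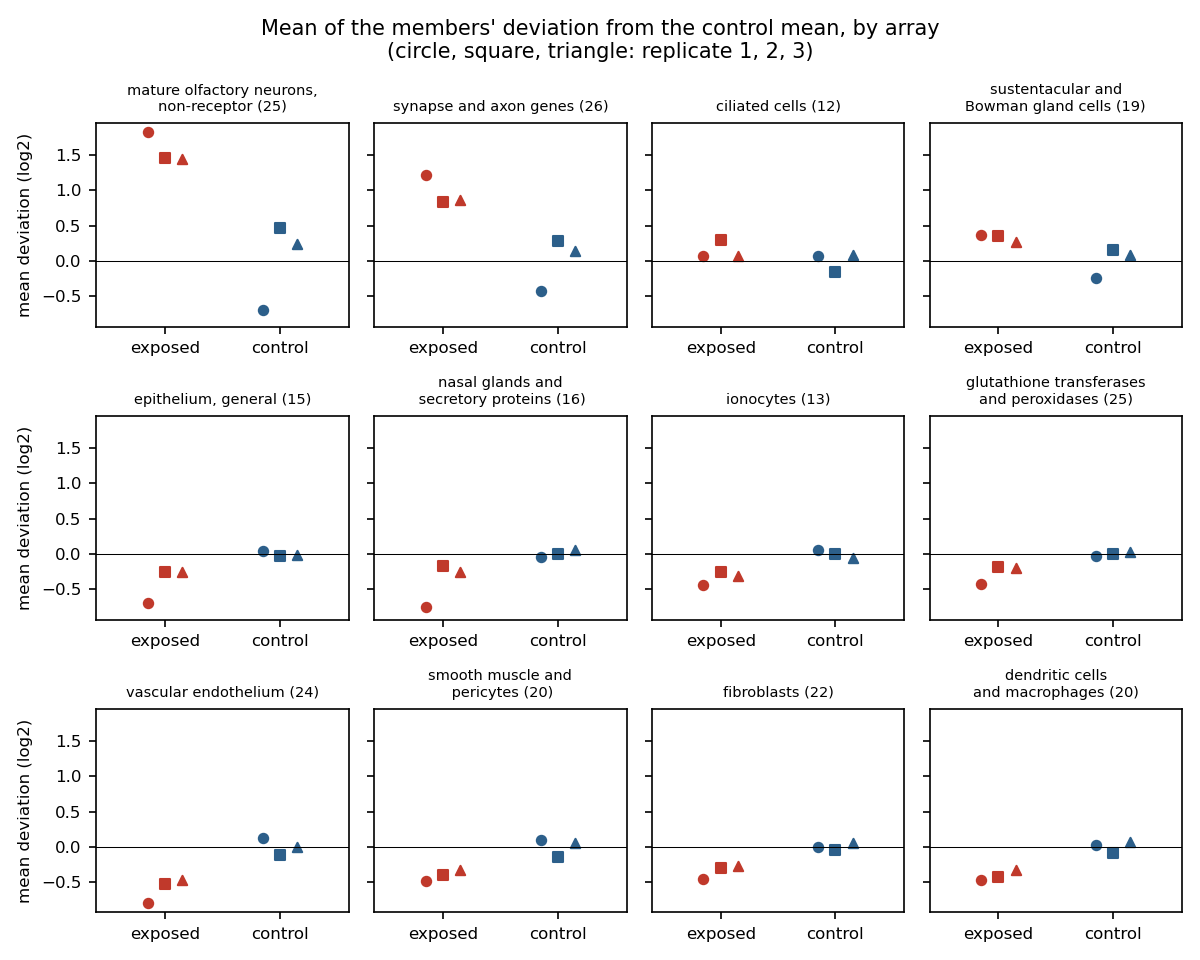
Mean deviation of a list's tested members from their control mean (log2), for 12 lists, exposed arrays left and control arrays right, with 1 point per array. Exposed replicate 1 lies lowest of the exposed arrays for epithelium, glands, ionocytes, glutathione enzymes, vessels, fibroblasts and macrophages and highest for olfactory neurons and synapse genes, and control replicate 1 lies lowest for olfactory neurons.

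In the ion transport list and the remaining tissue lists the calls went both ways or were single. Over all probe sets 16.3% were called in either direction. Of 24 genes of epithelial ion and water transport 3 fell (Slc5a8, Aqp1 and Aqp5), 3 rose and 18 did not pass. The rises were those of the bicarbonate carrier Slc4a4 by 1.06 ± 0.28, the sodium-proton exchanger Slc9a3 by 0.81 ± 0.23 and the chloride carrier Slc26a9 by 0.56 ± 0.13. None of these 6 calls remained without exposed replicate 1 or control replicate 1. Among 19 genes of Schwann cells and glia Gfra3 fell and Fabp7, Gldn and L1cam rose, and these rises ended without exposed replicate 1 or 3, control replicate 1 or control replicate 3. Of 9 genes of trigeminal and autonomic neurons 2 rose (Npy and Snap25) and Isl1 fell, and these calls ended without exposed replicate 1, control replicate 1 or control replicate 3. In bone and cartilage only Ucma fell of 18 genes, and in skeletal muscle only Des of 14, both calls ending in the same 3 fits.

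Glutathione and P450 enzymes had falls and no called rises, while Cbr1, a carbonyl reductase in the list of sustentacular cells, rose. Of 25 tested glutathione transferases, peroxidases and synthesis enzymes 9 fell, 0 rose and 16 did not pass, with a median of −0.19. Over all named genes tested falls made up 9.75% and non-receptor rises 7.52%. Gstp1, which joins glutathione to electrophiles, stood at 10.78, 11.59 and 11.50 in exposed nose, against 12.23, 12.12 and 12.40 in control nose, and its fall of 0.96 ± 0.19 held in all 6 fits. Gclm, a subunit of the enzyme that limits glutathione synthesis, fell by 0.71 ± 0.15, a call that ended without exposed replicate 1 (−0.53), control replicate 1 (−0.71) or control replicate 3 (−0.65). Mgst2 and Gstt1 fell by 0.70 ± 0.14 and 0.52 ± 0.10, calls that ended only without control replicate 1 (−0.63 and −0.47). The transferases Gstm1, Gstm4 and Gstm5 had differences of 0.24, 0.20 and 0.53 and did not pass. Of 22 P450 and related enzymes 4 fell and 0 rose, and Cyp4a8, a fatty acid hydroxylase, kept its call in all 6 fits. It stood at 10.31, 10.71 and 10.14 in exposed nose, against 11.46, 11.47 and 11.14 in control nose. Cyp2e1 and Cyp3a9 had differences of 1.11 and 1.51 and did not pass, and the summed intensity of the P450 list was 59107 to 60282 in exposed nose and 57173 to 59983 in control nose. Leaving out exposed replicate 1, control replicate 1 or control replicate 3 reduced the glutathione count to 3, 1 or 4 and the P450 count to 2, 1 or 1.

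Genes of the circadian clock, a loop in which Bmal1 and Clock switch on their own repressors, changed in part. Of 15 tested clock genes 4 fell, 1 rose and 10 did not pass, beside falls at 9.75% and non-receptor rises at 7.52% of all named genes tested. Nr1d1, the repressor REV-ERB alpha, stood at 8.46, 9.34 and 9.78 in exposed nose, against 11.07, 11.20 and 11.08 in control nose. It fell by 1.92 ± 0.28 (limma adjusted p = 0.00305), and the call held in all 6 fits, with the 3 exposed arrays spread wider than the controls. Cry1, a later repressor of the loop, stood at 8.86, 8.70 and 8.66 in exposed nose, against 8.15, 8.14 and 8.18 in control nose. It rose by 0.58 ± 0.10 (limma adjusted p = 0.00668), also in all 6 fits. Nr1d2, the relative of Nr1d1, fell by 0.57 ± 0.12, a call that ended without exposed replicate 1 (−0.44) or control replicate 3 (−0.52). Bhlhe40, a repressor as well, fell by 0.75 ± 0.17, a call that ended without exposed replicate 1 (−0.55), control replicate 1 (−0.75) or control replicate 2 (−0.70). Dbp, an output gene of the clock, fell by 0.52 ± 0.12, a call that held only without exposed replicate 3 (−0.64) or control replicate 1 (−0.61). Leaving out exposed replicate 1, control replicate 1 or control replicate 3 reduced the count of clock falls to 1, 3 or 2. Bmal1, Per1 and Per2 had differences of −0.45, −0.22 and 0.24 and did not pass. In white blood cells at 7 days Nr1d1 and Cry1 had differences of −0.33 and −0.15 and did not pass.

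The clock genes are shown with their promoters because the site of Bmal1 and Clock, the letters CACGTG, can be looked for there. It reads the same on both strands and was chosen after the values were seen. In the 250 bases before a start site, from RefSeq on build GRCr8, 4 of 14 clock genes with a promoter held it, against 1698 of 27457 genes (6.18%). Among the 923 genes that fell and had a promoter 61 held it (6.61%), against 778 of 10076 named genes tested (7.72%). The 2 matches among called clock genes are printed with the motif in capitals, Nr1d1 from chr10:84229620-84229665 on the minus strand and Bhlhe40 from chr4:143174210-143174255 on the plus strand.
Nr1d1: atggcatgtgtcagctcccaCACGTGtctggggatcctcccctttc
Bhlhe40: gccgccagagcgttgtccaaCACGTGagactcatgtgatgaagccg
The other 2 genes with a match, Tef and Bhlhe41, had differences of −0.13 and −0.07 and did not pass.

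The stress, hormone, metabolic and signalling lists are read beside the shares over all probe sets, 16.3% called, 7.84% lower and 8.43% higher. In the glucocorticoid list Fkbp5 and Mt1 rose, Zbtb16 and Klf9 fell, and 14 of 18 did not pass. Zbtb16, a transcription factor induced by glucocorticoids, stood at 8.82, 8.53 and 8.93 in exposed nose, against 9.42, 10.09 and 9.42 in control nose, and its fall of 0.88 ± 0.18 held in all 6 fits, unlike the other 3 calls, which ended in 4 (Fkbp5, 0.46 to 0.77), 6 (Mt1) and 6 (Klf9) of them. Of 25 immediate early genes, which respond within minutes to stimuli, 5 fell and 0 rose, led by Nr4a3 at −0.98 ± 0.24, and 0 of these calls remained without exposed replicate 1, control replicate 1 or control replicate 3. In the list of hypoxia and glycolysis Car12 and Pfkfb3 fell and Egln3 rose. Egln3, an oxygen-sensing hydroxylase, stood at 10.31, 9.99 and 9.98 in exposed nose, against 8.96, 9.25 and 9.11 in control nose, a rise of 0.98 ± 0.17 in all 6 fits. The falls of Car12 and Pfkfb3 both ended without exposed replicate 1, control replicate 1 or control replicate 3. In the unfolded protein response Ppp1r15a rose by 0.30 and Xbp1 fell by 0.33, with 21 of 23 not past, and these calls ended in 4 and 5 of the 6 fits. In cholesterol synthesis only Mvk rose of 19, a call that ended in all 6 fits. In adipocytes 2 of 13 genes fell, with Lpl, the lipoprotein lipase, at 7.76, 7.83 and 8.06 in exposed nose, against 9.20, 8.92 and 9.00 in control nose, a fall of 1.16 ± 0.13 (limma adjusted p = 0.00132) that held in all 6 fits. Notch and Wnt signalling had 2 of 19 and 3 of 35 genes lower and 0 and 1 higher, and none of these calls remained without exposed replicate 1, control replicate 1 or control replicate 3.

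The 918 rises beyond receptors made up 7.52% of all named genes tested. Among these rises, 38 were genes of the 3 neuron lists described here, which had 70 tested genes. Of 26 tested genes of synapses and axons 19 rose, 0 fell and 7 did not pass, with a median of 0.90. Leaving out exposed replicate 1, control replicate 1 or control replicate 3 reduced that count to 0, 1 or 8, and the count of 14 in the olfactory list became 3, 3 and 7. Of 19 genes of olfactory progenitors and immature neurons 5 rose and 0 fell, falling to 1, 1 and 2 in those fits. Ncam2, an adhesion molecule of olfactory axons, stood at 10.17, 9.18 and 9.48 in exposed nose, against 7.31, 7.16 and 7.44 in control nose, a rise of 2.31 ± 0.29 (limma adjusted p = 0.0017). Slc24a4, a calcium exchanger that in mice ends the odour response, stood at 10.91, 10.68 and 10.56 in exposed nose, against 8.39, 9.10 and 9.03 in control nose. Stmn4, a regulator of microtubules in young neurons, was at 10.13, 9.61 and 9.75 in exposed nose, against 7.48, 8.41 and 8.39 in control nose. These calls, with Pde4a at 1.26 ± 0.21, Rtp2 at 1.10 ± 0.17, Sec14l5 at 1.99 ± 0.36 and Trarg1 at 1.99 ± 0.35, held in all 6 fits.

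Calls of transduction genes were less stable. The counts below stand beside non-receptor rises at 7.52% of all named genes tested. Cnga4, a subunit of the odour-gated channel, stood at 11.45, 11.01 and 10.83 in exposed nose, against 8.09, 9.49 and 9.27 in control nose. Its rise of 2.15 ± 0.48 ended without exposed replicate 1 (1.97) or control replicate 1 (1.71). Adcy3, the cyclase of odour transduction, rose by 1.91 ± 0.58, a call that ended in all 6 fits (1.47 to 2.17). Drd2, a dopamine receptor, rose by 2.36 ± 0.62, and this call held only without control replicate 2 (2.60). The neuron marker Omp and the channel Cnga2 had differences of 2.00 and 2.51 and did not pass. In the list of vomeronasal transduction 2 of 7 tested genes rose, Gnao1 by 1.44 ± 0.41 and Nsg1 by 1.52 ± 0.40, and 0 fell, and both calls ended without exposed replicate 1, control replicate 1 or control replicate 3. Of 19 genes of sustentacular and Bowman gland cells, the supporting and gland cells of olfactory epithelium, only Cbr1 rose, by 0.54 ± 0.15, a call that ended in all 6 fits (0.45 to 0.59).

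Some rises belong to no list of neurons. Prss33, a serine protease, stood at 11.93, 11.06 and 11.38 in exposed nose, against 9.31, 8.26 and 8.97 in control nose, a rise of 2.61 ± 0.44 (limma adjusted p = 0.00591). Cpm, a membrane carboxypeptidase, stood at 12.33, 11.83 and 11.99 in exposed nose, against 10.76, 9.79 and 10.70 in control nose, a rise of 1.64 ± 0.30. For both, control replicate 2 was the lowest control. Moxd2, the largest rise that was no receptor, stood at 11.45, 8.89 and 10.91 in exposed nose, against 5.80, 6.19 and 6.29 in control nose. Those controls lie under the filter level of 6.61, so the size of its rise is uncertain, and the call ended in 4 of 6 fits (3.81 to 5.09). Ndc80, a kinetochore protein that ties chromosomes to the spindle, was the only called gene of 18 in the mitosis list. It stood at 8.55, 8.46 and 8.42 in exposed nose, against 7.04, 7.16 and 7.05 in control nose, and rose by 1.39 ± 0.10 (limma adjusted p = 0.000196). Other mitosis genes such as Top2a, Cdk1 and Plk1 had differences of 0.21, −0.07 and 0.09 and did not pass.

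At the promoters of the genes that rose, the core letters of the site of EBF factors, regulators of olfactory genes (TCCC, any 2 bases, then GGGA, the same on both strands), were counted in the same windows. They stood in 4 of 743 non-receptor rises (0.538%), 0 of 268 receptor rises and 8 of 923 falls (0.867%), against 223 of 27457 genes (0.812%). The 4 rises with a match were Scg3, Aig1, Mterf2 and Ppox, and only Scg3 among them is a gene picked by the naming rule.

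The comparison most like this one, the same tissue at 28 days, had 1 probe set past the threshold (0.00456%). The 28 day differences come from other arrays, but both days share 1 fitted spread per probe set. Of the 1190 named genes that fell at 7 days 1020 (85.7%) were below 0 at 28 days, where 47.3% of all probe sets were. Of the 918 non-receptor rises 859 (93.6%) were above 0, beside 52.7% of all. The median differences at 28 days were −0.16 and 0.29, beside −0.51 and 0.66 at 7 days. Picking genes by their 7 day calls makes the 7 day medians run large. The smaller 28 day medians therefore cannot show that the effect differs between the days. Lpl, Ccl21 and Cd34 differed by −0.79, −0.82 and −0.76 at 28 days, while Uts2r, Cyp4a8 and Erg differed by −0.10, 0.01 and −0.06. The difference of the effects itself passed at 22 probe sets (0.1%), all with the higher effect at 7 days, of which 11 were receptor genes, 10 had no name and 1 was Ndc80. Probe sets dim in control nose were tested only where other nose arrays were higher, so for them this direction is no separate result. How many of the 22 are such probe sets was not counted. The number passing was 145 with no filter and 1 with the filter at the median. So no called fall was shown to differ between the days. The 28 day arrays lie on a lower scale, which limits that test.

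In white blood cells at 7 days the nose genes that fell were not lower more often than other probe sets. Of 1066 nose falls also measured in blood 393 (36.9%) were below 0, where 38.2% of all probe sets were, and the median difference was 0.05. Of the 100 probe sets that passed in blood (0.498% of 20096) 4 were among these named falls.

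**Figure D5:**
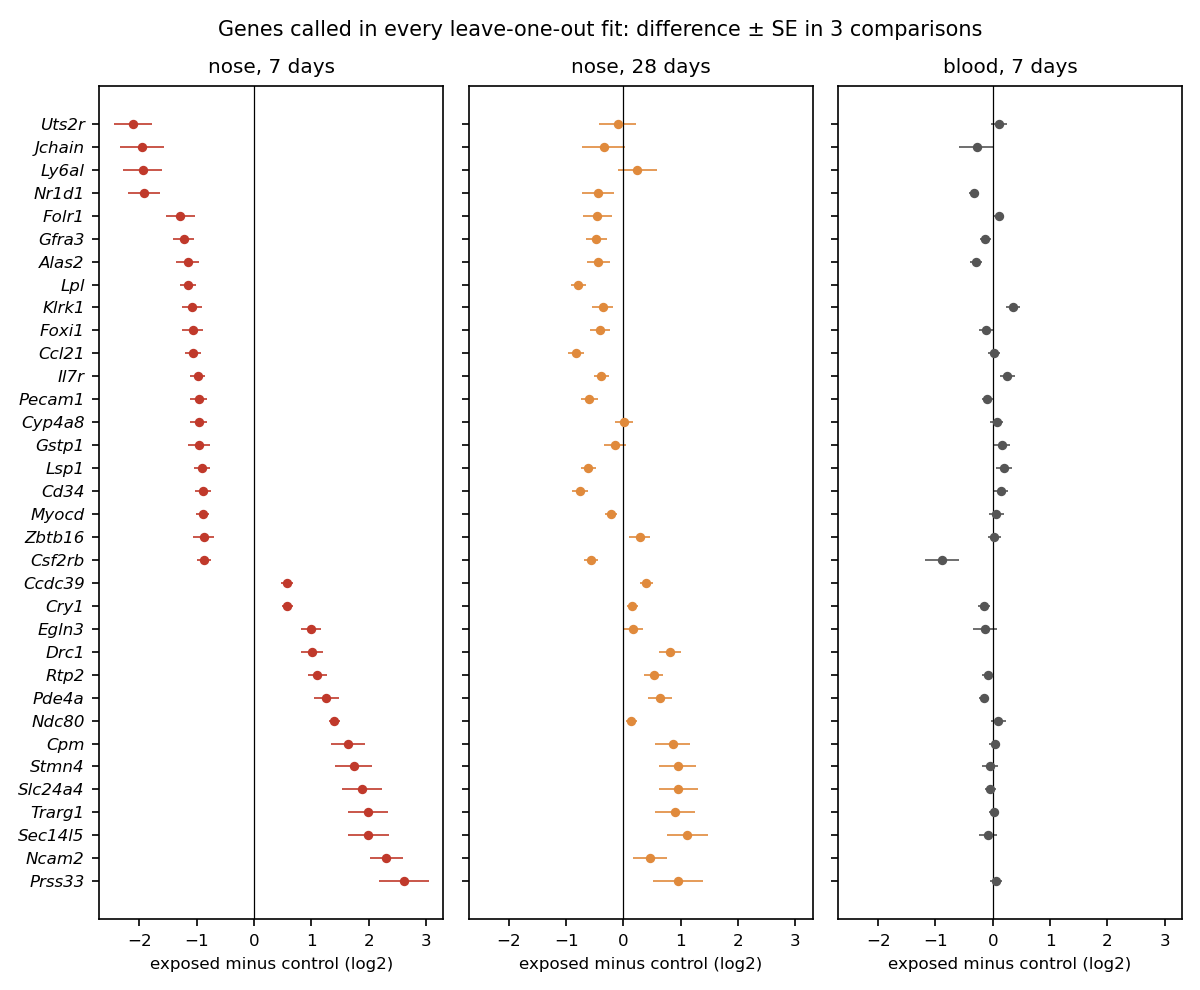
Exposed minus control ± SE (log2, limma) in nose at 7 days, nose at 28 days and blood at 7 days, for the 20 largest falls and the 14 rises among the picked genes that kept their call in all 6 fits (no point where a gene was not tested in blood). Most falls lie nearer 0 at 28 days, which picking by the 7 day calls gives by itself. Ccl21 at −0.82, Lpl at −0.79 and Cd34 at −0.76 are the lowest there, and Csf2rb is the lowest gene in blood, at −0.89.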

How the data were processed

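RNA was measured on Affymetrix arrays. The authors deposited 1 normalised intensity per probe set and array, on a linear scale. The submitters' processing notes name Partek, without the steps run in it. How background was corrected and probes were summarised is not given in the sources used here. There are 29214 probe sets on 24 arrays, and 0 columns lacked a sample. Groups came from the sample titles. The platform's gene table gave 1 symbol to 15310 probe sets, several to 323 and none to 13581. On every array 198 probe sets held the same values as a further probe set.

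The log2 of each value was analysed without renormalizing. Probe sets whose mean over the 12 nose arrays was at or above their percentile 25 (6.61) were kept, 21910 in all, and 7304 were left out. The 12 nose arrays were fitted with limma 3.58.1 (R 4.3.3) and 4 group means (lmFit, contrasts.fit, eBayes; 8 residual degrees of freedom). Tests were two-sided, with Benjamini-Hochberg adjustment over all probe sets kept and a threshold of 0.05. A gene was read by its probe set with the highest mean. Blood was fitted in the same way. Arrays with the same number did not deviate together (residual r of −0.261, −0.0782 and −0.141 for numbers 1 to 3). With 3 arrays per group these values cannot exclude pairing by number. The labels state no pairing, so none was fitted in the main analysis. With 200 probe sets changed in simulated data, 53.7% were recovered at 1.5-fold, 83.6% at 2-fold and 100% at 4-fold, with 5 false calls. The simulated noise was independent for each probe set, unlike the real arrays, where many probe sets deviate together. False calls from such shared deviations were therefore not measured.

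The comparison, its gene lists and the rule for named genes were chosen with earlier results of these data known, so lists get counts and medians but no test. The rule picks the 25 largest falls and the 25 largest non-receptor rises among called genes, the 8 largest of each among genes above percentile 90, up to 4 called members of each of the 44 lists by moderated statistic, and the epithelial markers. List members outside it that are named in the text (such as Gucy2d, Gucy1b1, Fap, Ebf1, Cd55, Dnase1, Bpifb3, Dbp, Slc5a8, Aqp1 and Bmp5, and those that did not pass) were chosen after their values were seen. Alternatives were the filter, the scaling, the prior, the arrays fitted, a replicate block, the threshold and each array left out. Promoters were RefSeq's on build GRCr8. Figures were drawn with matplotlib 3.10.9.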

Additional observations from a re-analysis of the deposited data

Results flagged for a closer look

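In the main fit Ndc80 rose more at 7 days than at 28 days. Its rise was 1.39 ± 0.10 at 7 days and 0.14 at 28 days, a difference of 1.25 (limma adjusted p = 0.0188 for the difference of the effects), and in white blood cells at 7 days it differed by 0.10. All 3 exposed arrays of 7 days lay above all 3 controls. Over all probe sets the effects differed between the days at 22, each with the higher effect at 7 days, and the 28 day arrays lie on a lower intensity scale, whose part was not tested. That count was 1 with the filter at the median and 1 after quantile normalization. Whether the difference of Ndc80 between the days passed in the other settings is not reported here.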

How the results depend on the processing

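The calls depend on which arrays are fitted. Leaving out 1 array at a time gave 501 to 1374 probe sets higher, 261 to 1298 lower, 22 to 220 lower by 2-fold or more, 1 to 60 for the difference between the days, 56 to 144 of the named genes and 20 to 32 lists with more falls than rises (main values 1847, 1717, 142, 22, 182 and 30). With only the 6 arrays of 7 days 2790 were higher and 3514 lower. With a replicate block 1094 were higher, 701 lower, 81 lower by 2-fold or more, 82 differed between the days and 108 named genes passed. The filter at the median, which tests fewer probe sets, left 1185 higher. At an adjusted p under 0.1 there were 2766 lower. The difference between the days (22) was least stable, at 145 with no filter, 1 with the filter at the median, 1 after quantile normalization, 65 after median centring, 14 with an intensity trend and robust prior and 137 at an adjusted p under 0.1. The sign of Epcam turned after quantile normalization (0.0152) and without exposed replicate 1 (0.0130; leave-one-out range −0.0195 to 0.0130). The causes were not tested. Rises made up 51.8% of the calls, 54.5% after quantile normalization and 54.8% after median centring. Differences smaller than 1.5-fold are often missed with 3 arrays per group.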
